A study of Homo sapiens with 6 samples.

Results

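The genes examined here are the 48 that encode cyclins, cyclin-dependent kinases (CDKs), CDK inhibitors, E2F transcription factors and their closest regulators. They were taken by gene symbol from a table of 27968 genes, and all 48 had enough reads to be tested. RNA was measured in H23 cells, an established human lung adenocarcinoma line grown in RPMI medium with fetal bovine serum, at 48 h after an siRNA was delivered with the lipid reagent RNAiMAX. In 3 libraries the cells had received an siRNA specific to HOTAIR-N, and in the other 3 a control siRNA. HOTAIR is a long non-coding RNA transcribed from the HOXC homeobox cluster, and HOTAIR-N is the name the labels give to the targeted form. All 6 libraries come from 1 cell line and, per the design text, each from a transfection of its own. The sequences of the siRNAs, and whether each was a single siRNA or a pool, are not stated in any source used here.

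Cyclins are regulatory subunits whose levels rise and fall through the cell cycle, and each switches on a partner CDK. D-type cyclins with CDK4 or CDK6, and then E-type cyclins with CDK2, phosphorylate the retinoblastoma family of pocket proteins, which frees E2F factors to transcribe the genes of DNA replication. A- and B-type cyclins with CDK2 and CDK1 carry the cell through S phase and into mitosis, and their own genes are transcribed late in the cycle under the MuvB complex and FOXM1. Inhibitors of the INK4 family block CDK4 and CDK6, and those of the CIP/KIP family, with p21 and p27 as the best known, block CDK2 complexes. Loss of INK4 inhibitors and excess of cyclin D1 recur in lung adenocarcinoma.

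HOTAIR itself was measured first. It had 88, 74 and 82 expected counts with HOTAIR-N siRNA, against 169, 148 and 202 with control siRNA, where an expected count is the estimated number of reads of a gene. The groups did not overlap, and HOTAIR stood at 48.6% of control, a log2 fold change of -1.04 (SE 0.14, edgeR adjusted p = 1.32e-05). These values are for the HOTAIR gene as a whole, and the level of the HOTAIR-N form by itself is not given here. With 3 libraries a group an exact permutation test of HOTAIR, two-sided, cannot go below its value here of p = 0.1. Libraries held 32715361 to 35329948 expected counts with HOTAIR-N siRNA and 34715341 to 36578681 with control siRNA. Replicates differed by more than sampling noise, and control replicate 1 stood furthest from its group, with a chi-square per degree of freedom of 14.0 and 12.7 against the other two, where every other pair within a group had 2.05 to 6.75 and pairs across groups had 76.0 to 85.9. Of the 6 epithelial markers, the keratins KRT8 and KRT18 lay between 1334 and 2809 TPM in every library, CDH1, which encodes E-cadherin, at 11.6 to 25.3 TPM, and EPCAM, KRT19 and KRT7 at 1.08 to 7.99 TPM. Of the lung markers NKX2-1 lay at 1.06 to 3.02 TPM, NAPSA at 0.41 to 0.69 TPM and the surfactant genes SFTPB and SFTPC at 0 to 0.05 TPM. With HOTAIR-N siRNA, KRT18 fell (log2 fold change -0.71, edgeR adjusted p = 1.23e-07), and CDH1 (1.07, edgeR adjusted p = 2.35e-09), KRT7 (1.05, edgeR adjusted p = 0.000368) and NKX2-1 (1.02, edgeR adjusted p = 0.000196) rose; their part in the results on cell cycle genes was not tested. PTPRC, CD3E, PECAM1 and DCN, which mark leukocytes, endothelium and fibroblasts, lay at 0 to 0.02 TPM in every library, the endothelial CDH5 and the fibroblast PDGFRB at 0.07 to 0.31 TPM, and CD68, a lysosomal protein of macrophages and other cells, at 7.13 to 9.32 TPM. TPM is a level adjusted for gene length and library size, which allows genes to be compared.

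Across the cell cycle genes, 21 of 48 fell and 11 rose with HOTAIR-N siRNA, and 16 did not pass the test. The test was edgeR's quasi-likelihood test with Benjamini-Hochberg adjustment over all 15072 tested genes and a threshold of 0.05. That makes 66.7% of the cell cycle genes past the threshold, 43.8% lower and 22.9% higher. Over all tested genes 57.5% passed, 28.8% lower and 28.7% higher, so the siRNAs differed over most of the transcriptome. The median log2 fold change of the 48 genes was -0.15, against 0.01 over all tested genes. In TPM the groups did not overlap for 32 of the 48, or 66.7%, and for 61.2% of all tested genes. None of the 48 rose by a fold of 2 or more and 3 fell by that much, namely the kinases CDK8 and CDK2 and the repressor E2F7. Together the 48 genes took 0.433 to 0.439% of counts with HOTAIR-N siRNA and 0.456 to 0.462% with control siRNA. In RNA from whole cultures, fewer cells in a phase of the cycle and less RNA per cell cannot be told apart.

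**Figure D1:**
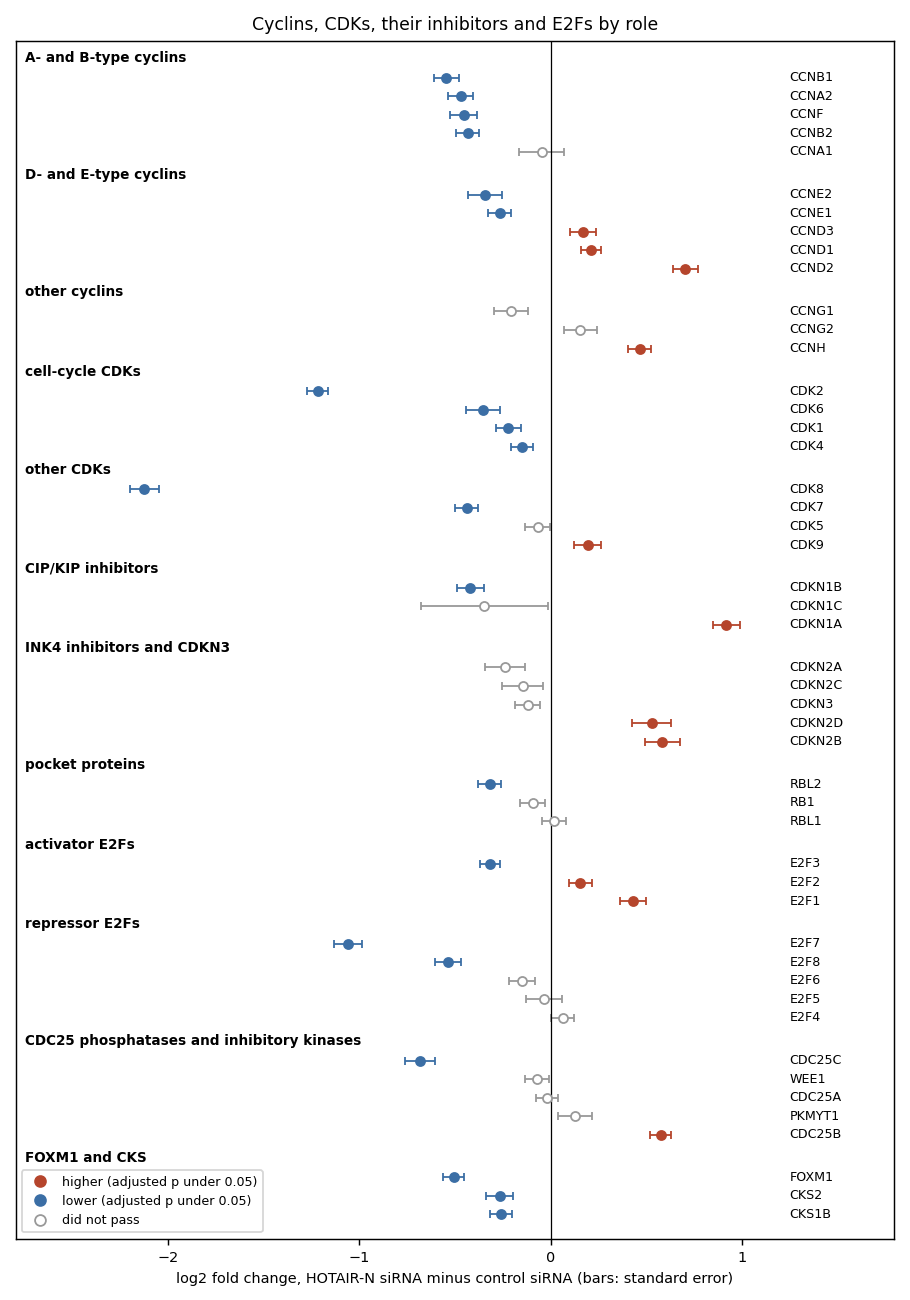
Log2 fold change of each of the 48 cell cycle genes, HOTAIR-N siRNA minus control siRNA, in groups of role. Points are edgeR estimates and bars 1 standard error; 21 genes lie below 0 and 11 above it past the threshold, from -2.13 for CDK8 to 0.92 for CDKN1A.

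**Figure D2:**
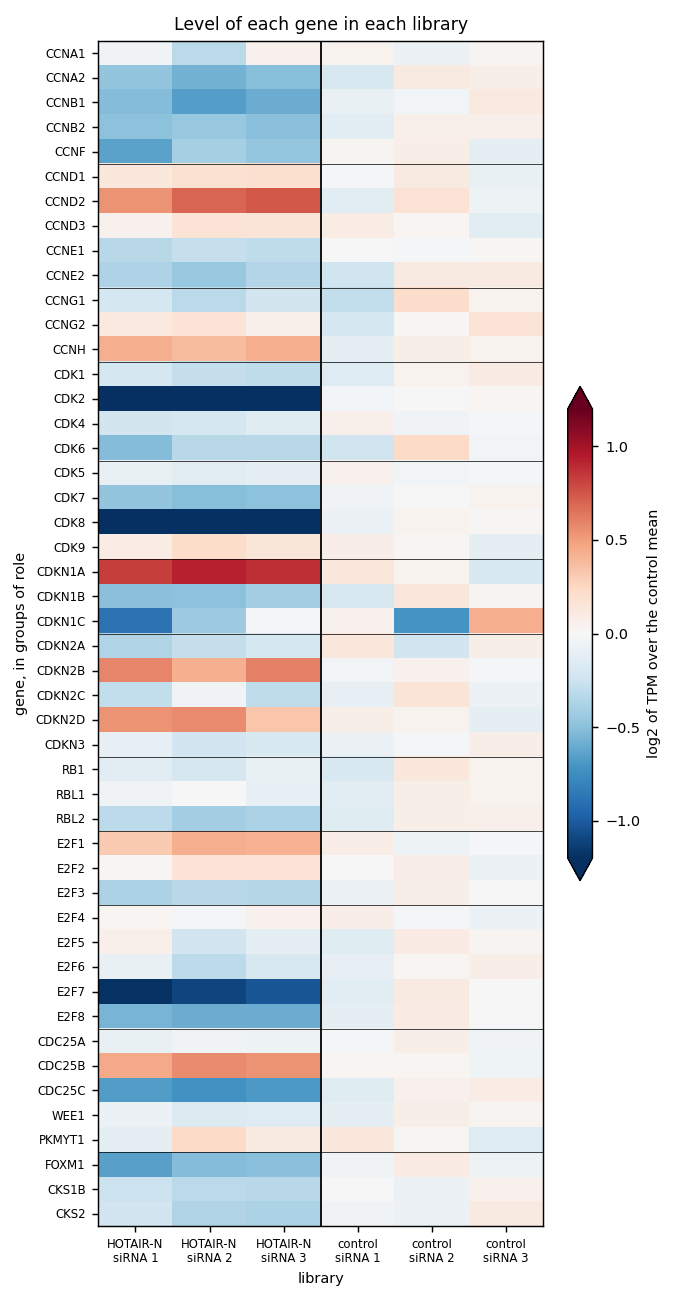
Level of each gene in each of the 6 libraries as log2 of its TPM over the mean of the 3 control siRNA libraries, HOTAIR-N siRNA libraries on the left. CDK2, CDK8 and E2F7 are the darkest rows, and the 3 HOTAIR-N siRNA libraries look alike in each; the scale ends at 1.2 in either direction.

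Of the A- and B-type cyclins, grouped here with cyclin F, 4 of 5 fell with HOTAIR-N siRNA, to between 68.5 and 74.0% of control. Over all tested genes 28.8% fell. CCNB1 encodes cyclin B1, the partner of CDK1 at entry into mitosis, and had 267.7, 243.1 and 254.6 TPM with HOTAIR-N siRNA, against 360.4, 374.9 and 416.7 TPM with control siRNA. Every HOTAIR-N siRNA library lay below every control library, and CCNB1 fell by 0.55 on the log2 scale (SE 0.06, edgeR adjusted p = 3.96e-06). CCNA2, cyclin A2 of S and G2 phase, had 109.1, 102.5 and 106.3 TPM with HOTAIR-N siRNA and 132.8, 163.2 and 158.9 TPM with control siRNA. Control replicate 1 was the lowest control and still above all 3 HOTAIR-N siRNA libraries, with a log2 fold change of -0.47 (SE 0.06, edgeR adjusted p = 1.95e-05). CCNF encodes cyclin F, the substrate-binding subunit of an SCF ubiquitin ligase, and had 21.6, 25.4 and 24.4 TPM with HOTAIR-N siRNA, against 34.4, 35.4 and 31 TPM with control siRNA. CCNB2, cyclin B2, had 120.1, 124.0 and 120.0 TPM with HOTAIR-N siRNA, against 154.9, 176.9 and 176.4 TPM with control siRNA. For both the groups were apart, with log2 fold changes of -0.45 (SE 0.07, edgeR adjusted p = 5.93e-05) for CCNF and -0.43 (SE 0.06, edgeR adjusted p = 1.43e-05) for CCNB2. CCNA1, a cyclin A mostly known from the male germ line, lay at 4.43 to 5.73 TPM with HOTAIR-N siRNA and 5.26 to 5.69 TPM with control siRNA and did not pass (log2 fold change -0.05, SE 0.12, edgeR adjusted p = 0.749).

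FOXM1, a transcription factor of the late cell cycle, and the small CDK-binding proteins CKS1B and CKS2 fell as well. FOXM1 had 152.7, 167.5 and 169.8 TPM with HOTAIR-N siRNA, against 233.5, 256.3 and 230.0 TPM with control siRNA. The gap between the groups was larger than the range within either, and the log2 fold change was -0.51 (SE 0.05, edgeR adjusted p = 1.52e-06). CKS1B, which also serves the SKP2 ubiquitin ligase in the degradation of p27, was the most abundant of the 48 genes, at 911.0, 872.2 and 863.6 TPM with HOTAIR-N siRNA, against 1098, 1042 and 1134 TPM with control siRNA. CKS2 was second, at 409.0, 373.9 and 369.5 TPM with HOTAIR-N siRNA, against 466.4, 456.6 and 516.9 TPM with control siRNA. The groups were apart for both and the changes small, to 83.6% of control for CKS1B (log2 fold change -0.26, SE 0.06, edgeR adjusted p = 0.00157) and 83.1% for CKS2 (log2 fold change -0.27, SE 0.07, edgeR adjusted p = 0.00411). CKS1B has processed copies elsewhere in the genome, and reads shared with them may have been divided in the counting.

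Late cell cycle genes are known for promoters in which CCAAT boxes, bound by NF-Y, stand upstream of a CHR element (here TTTGAA or TTCGAA), where MuvB binds. Promoters from RefSeq (GRCh38.p14), 250 bases before to 50 after the start site, were at hand for 38 of the 48 genes, as 55 promoters. CDK2, E2F8 and FOXM1, which fell, are among the genes without one. The CCAAT and CHR words were searched on both strands. In 7 genes that fell, 1 promoter holds both CCAAT boxes and a CHR word. The promoters of 3 of these genes are shown, with the words in capitals. The CHR word nearest the start site begins at position -29 in CCNB2 and CKS2 and -30 in CKS1B, counted from the start. They lie at chr15:59104896-59105195 (+ strand, CCNB2), chr1:154974431-154974730 (+, CKS1B) and chr9:89310945-89311244 (+, CKS2).
CCNB2: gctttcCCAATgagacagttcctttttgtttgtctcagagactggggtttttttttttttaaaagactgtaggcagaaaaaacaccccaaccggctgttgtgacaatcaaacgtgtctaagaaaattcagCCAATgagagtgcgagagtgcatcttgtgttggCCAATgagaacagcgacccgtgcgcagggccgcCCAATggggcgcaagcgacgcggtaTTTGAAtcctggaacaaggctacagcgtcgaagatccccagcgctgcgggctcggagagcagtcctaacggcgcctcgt
CKS1B: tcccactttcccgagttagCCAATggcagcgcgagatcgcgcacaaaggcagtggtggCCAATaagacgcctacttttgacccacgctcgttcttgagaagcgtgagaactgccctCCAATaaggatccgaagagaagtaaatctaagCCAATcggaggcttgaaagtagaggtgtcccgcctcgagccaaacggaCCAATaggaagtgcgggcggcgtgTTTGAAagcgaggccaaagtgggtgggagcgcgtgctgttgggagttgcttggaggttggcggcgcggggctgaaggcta
CKS2: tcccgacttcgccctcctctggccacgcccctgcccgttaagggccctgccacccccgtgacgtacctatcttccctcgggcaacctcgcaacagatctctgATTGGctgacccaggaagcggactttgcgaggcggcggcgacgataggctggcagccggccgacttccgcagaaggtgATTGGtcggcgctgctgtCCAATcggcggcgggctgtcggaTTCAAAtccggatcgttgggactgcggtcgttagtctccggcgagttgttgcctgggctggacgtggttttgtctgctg
CCNB2 carries 4 CCAAT words, CKS1B 5 and CKS2 3, some of them as ATTGG, the reverse complement. Among the 55 promoters of cell cycle genes 45.5% held a CCAAT word, 21.8% a CHR word and 20% both, against 34.6%, 16.4% and 6.38% of all 35116 promoters. By gene, both words stood in 1 promoter in 7 of the 17 cell cycle genes that fell and had a promoter in the table, in 1 of the 9 that rose and in 1 of the 12 that did not pass. The same held for 9.08% of all tested genes that fell, 4.97% of those that rose and 5.54% of those that did not pass. CCNB1 and CCNA2, which fell, held CCAAT words and no CHR word of the forms searched, and the gene that rose with both words was CDC25B. The letters describe the sequence, and binding was not measured.

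All 4 CDKs that drive the cycle fell, against 28.8% of all tested genes, CDK2 by far the most. CDK2, the partner of cyclins E and A, had 53.8, 54.3 and 53.5 TPM with HOTAIR-N siRNA, against 126.7, 129.3 and 131.7 TPM with control siRNA. Means were 53.9 ± 0.39 TPM with HOTAIR-N siRNA and 129.2 ± 2.49 TPM with control siRNA (SD, n = 3 each), and CDK2 stood at 43.0% of control, a log2 fold change of -1.22 (SE 0.05, edgeR adjusted p = 2.21e-10). Its 2 larger isoforms both fell, NM_001798 by 1.23 (edgeR adjusted p = 0.000214) and NM_052827 by 1.02 (edgeR adjusted p = 0.018) on the log2 scale. CDK1, the mitotic kinase, had 104.2, 98.7 and 98.1 TPM with HOTAIR-N siRNA, against 108.5, 124.3 and 129.4 TPM with control siRNA. Its highest HOTAIR-N siRNA library and its lowest control library lay close together, and the log2 fold change of -0.22 (SE 0.06, edgeR adjusted p = 0.00914) did not pass without control replicate 3 (-0.16, edgeR adjusted p = 0.0525). CDK6, one of the 2 partners of D-type cyclins, was the lowest of the 4 at 3.46, 3.95 and 3.95 TPM with HOTAIR-N siRNA, against 4.22, 5.84 and 4.86 TPM with control siRNA. The groups did not overlap, with a log2 fold change of -0.35 (SE 0.09, edgeR adjusted p = 0.00393). CDK4, the other partner, had 202.0, 202.8 and 211.6 TPM with HOTAIR-N siRNA, against 245.5, 228.2 and 230.3 TPM with control siRNA. It fell by 0.15 on the log2 scale (SE 0.06, edgeR adjusted p = 0.0372), a call lost under 9 of 16 alternatives of scaling, filter, tool, correction or libraries used, with its highest adjusted p at 0.13 without HOTAIR-N siRNA replicate 2 (edgeR).

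The CDKs that act outside the cycle's core moved apart. CDK8, a kinase of Mediator, the complex that relays signals to RNA polymerase II, had the largest change of the 48 genes, at 5.80, 5.15 and 5.82 TPM with HOTAIR-N siRNA, against 24.1, 26.01 and 25.5 TPM with control siRNA. These levels rest on 299, 272 and 321 expected counts with HOTAIR-N siRNA, against 1290, 1327 and 1405 with control siRNA. Each HOTAIR-N siRNA library was at about the same low level, 22.9% of control, with a log2 fold change of -2.13 (SE 0.08, edgeR adjusted p = 3.78e-11). CDK7, the catalytic subunit of the CDK-activating kinase, had 48.9, 47.6 and 48.3 TPM with HOTAIR-N siRNA, against 65.98, 67.5 and 69.9 TPM with control siRNA, and fell by 0.44 on the log2 scale (SE 0.06, edgeR adjusted p = 2.55e-05). CCNH, the cyclin H that pairs with CDK7, went the other way, at 106.6, 103.0 and 107.2 TPM with HOTAIR-N siRNA, against 72.97, 82.7 and 81.3 TPM with control siRNA. No library of one group reached the other for either subunit, and CCNH rose by 0.47 on the log2 scale (SE 0.06, edgeR adjusted p = 9.98e-06). CDK9, the kinase that releases paused RNA polymerase II, had 34.3, 37.5 and 35.6 TPM with HOTAIR-N siRNA, against 34.2, 32.6 and 29.9 TPM with control siRNA. Its groups were nearly touching, and the rise of 0.19 on the log2 scale (SE 0.07, edgeR adjusted p = 0.0264) was lost under 5 of 16 alternatives, 4 of them with a library left out, with an adjusted p of up to 0.119 without HOTAIR-N siRNA replicate 2 (edgeR). CDK5, known for its work in neurons, did not pass (log2 fold change -0.07, SE 0.06, edgeR adjusted p = 0.388), although its TPM did not overlap, at 76.6 to 79.2 with HOTAIR-N siRNA against 82.3 to 87.6 with control siRNA. Under 2 of 16 alternatives CDK5 passed as lower.

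CDK8 was the only one of the 47 cell cycle genes with a 3′ UTR of at least 50 nt to hold GACCAAT or ACCAATA there. These words were singled out by earlier work on the same libraries, in which genes that carry them were lower with HOTAIR-N siRNA, so they are no independent evidence. Both windows lie in the 3′ UTR of transcript ENST00000381527.7 (GENCODE 29, GRCh38), at chr13:26404338-26404367 and chr13:26404450-26404479 on the + strand, with the words beginning at bases 268 and 380 of a UTR of 1157 nt and printed in capitals.
CDK8 first window: tggttcagactGACCAATgcatttttttca
CDK8 second window: caacattatctGACCAATAgtacacacaca
That is 1 of 47 cell cycle genes (2.13%), against 1382 of 13053 tested genes with such a UTR (10.6%). With a word, 52.2% of genes were lower and 17.8% higher, with a median log2 fold change of -0.25, and without one 27.9% were lower and 30.2% higher, with a median of 0.02. CDK2, E2F7, FOXM1 and the cyclins that fell hold neither word in the UTR or the coding sequence of the transcripts searched. CDK8, RB1 and RBL1 hold one in the coding sequence. CDK6, which fell, is left out of the 47 because the transcript matched to it is listed with a 3′ UTR of 0 nt. The 3′ UTR of CDK6 was therefore not searched. The part of the words in the change of CDK8 was not tested.

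The D-type cyclins rose and the E-type cyclins fell. CCND2, cyclin D2, had 104.2, 116.2 and 119.8 TPM with HOTAIR-N siRNA, against 65.7, 80.6 and 68.8 TPM with control siRNA. All 3 HOTAIR-N siRNA libraries were above all controls, and CCND2 rose to 163% of control, a log2 fold change of 0.71 (SE 0.07, edgeR adjusted p = 3.46e-07). CCND1, cyclin D1, was the most abundant of the 3 at 241.9, 250.3 and 253.0 TPM with HOTAIR-N siRNA, against 217.5, 238.5 and 207.1 TPM with control siRNA. The lowest HOTAIR-N siRNA library lay just above the highest control, with a rise of 0.21 on the log2 scale (SE 0.05, edgeR adjusted p = 0.00291). CCND3 overlapped between the groups, at 51.98 to 56.1 TPM with HOTAIR-N siRNA, against 45.96 to 53.4 TPM with control siRNA, and its log2 fold change of 0.17 (SE 0.07, edgeR adjusted p = 0.0475) was lost under 10 of 16 alternatives, 5 of them with a library left out, with an adjusted p of up to 0.203 without control replicate 3 (edgeR). CCNE1, cyclin E1, had 46.3, 48.2 and 47.3 TPM with HOTAIR-N siRNA, against 58.6, 57.7 and 58.98 TPM with control siRNA. Replicates of either group were nearly alike, and CCNE1 fell to 83.2% of control, a log2 fold change of -0.27 (SE 0.06, edgeR adjusted p = 0.00154). CCNE2, cyclin E2, fell by 0.34 on the log2 scale (SE 0.09, edgeR adjusted p = 0.00392), with levels of 9.31 to 10.0 TPM with HOTAIR-N siRNA and 10.8 to 13.7 TPM with control siRNA. The cyclins CCNG1 and CCNG2, which are known as stress-responsive and bind no cell cycle CDK in the usual way, did not pass. CCNG1 had 43.4, 40.1 and 43.1 TPM with HOTAIR-N siRNA, against 40.8, 58.1 and 51.5 TPM with control siRNA, where control replicate 1 lay among the HOTAIR-N siRNA libraries. Its log2 fold change was -0.21 (SE 0.09, edgeR adjusted p = 0.0601), and -0.31 without that library (edgeR adjusted p = 0.00022). In all, CCNG1 passed as lower under 5 of 16 alternatives. CCNG2 lay at 7.23 to 7.78 TPM with HOTAIR-N siRNA and 6 to 7.76 TPM with control siRNA (log2 fold change 0.16, SE 0.09, edgeR adjusted p = 0.135). It passed as higher under 3 of 16 alternatives, among them without control replicate 3 (0.25, edgeR adjusted p = 0.0219).

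Among the CDK inhibitors 3 rose, 1 fell and 4 did not pass, where 57.5% of all tested genes passed, 28.7% higher and 28.8% lower. CDKN1A, the p21 inhibitor of CDK2 complexes, rose the most of the 48 genes. It had 219.3, 233.9 and 228.1 TPM with HOTAIR-N siRNA, against 135.1, 127.1 and 108.6 TPM with control siRNA. The 2 groups were far apart, at 189% of control, a log2 fold change of 0.92 (SE 0.07, edgeR adjusted p = 6.57e-08). CDKN1B, the related p27, fell instead, with 37.8, 38.04 and 40.4 TPM with HOTAIR-N siRNA, against 46.8, 58.9 and 54.9 TPM with control siRNA. Control replicate 1 was again the lowest control and above every HOTAIR-N siRNA library, and the log2 fold change was -0.42 (SE 0.07, edgeR adjusted p = 0.000116). CDKN1C, p57, rested on 11, 15 and 22 expected counts with HOTAIR-N siRNA, against 22, 12 and 29 with control siRNA. Its groups overlapped and it did not pass, with the largest SE of the 48 genes (log2 fold change -0.35, SE 0.33, edgeR adjusted p = 0.389).

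**Figure D3:**
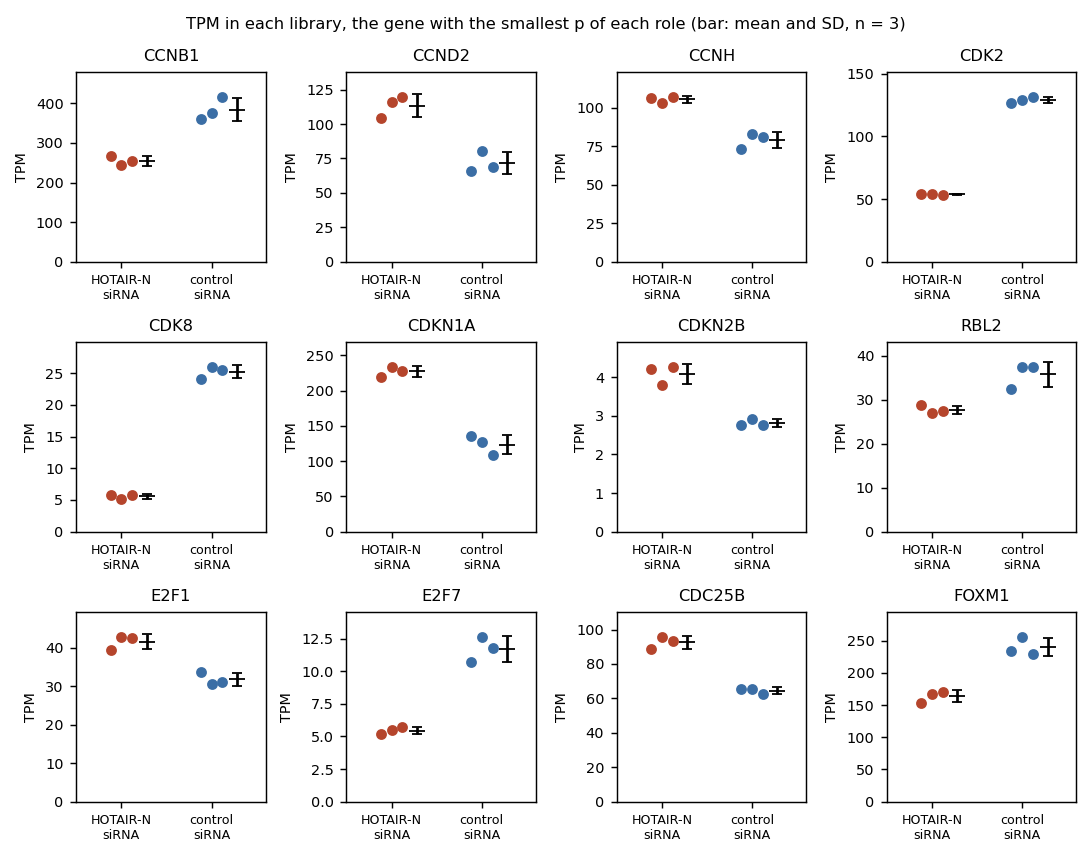
TPM in each library for the gene with the smallest p of each of the 12 roles, HOTAIR-N siRNA on the left and control siRNA on the right of each panel, with axes that start at 0. Points are libraries and bars the mean and SD of 3. The groups do not overlap in any panel, which the choice by smallest p favors, and 61.2% of all tested genes do not overlap either. The largest fold is that of CDK8 (5.59 against 25.2 TPM on average).

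Of the INK4 inhibitors, which bind CDK4 and CDK6, CDKN2B and CDKN2D rose. CDKN2B, p15, had 4.21, 3.79 and 4.27 TPM with HOTAIR-N siRNA, against 2.75, 2.92 and 2.77 TPM with control siRNA. Its groups were apart at a low level, with a rise to 150% of control, a log2 fold change of 0.59 (SE 0.09, edgeR adjusted p = 7.33e-05). CDKN2D, p19, had 14.7, 14.9 and 12.7 TPM with HOTAIR-N siRNA, against 10.6, 10.4 and 9.28 TPM with control siRNA. Its libraries did not overlap either, with a log2 fold change of 0.53 (SE 0.10, edgeR adjusted p = 0.00045). CDKN2A, which encodes p16 and, in another reading frame, p14ARF, had 20.7, 21.8 and 22.9 TPM with HOTAIR-N siRNA, against 29.1, 22.7 and 27.9 TPM with control siRNA. Control replicate 2 lay within the HOTAIR-N siRNA libraries, and the gene did not pass (log2 fold change -0.24, SE 0.10, edgeR adjusted p = 0.0606). It passed as lower under 4 of 16 alternatives, among them without that library (-0.36, edgeR adjusted p = 0.0034). Nearly all of the CDKN2A reads were assigned to NM_058195, the p14ARF transcript, at 98.3, 98.7 and 96.7% of the gene with HOTAIR-N siRNA, against 98.6, 99.3 and 98.9% with control siRNA. NM_000077, the p16 transcript, was listed at 0.16, 0 and 0.65 TPM with HOTAIR-N siRNA, against 0.27, 0 and 0 TPM with control siRNA, too few reads to test. CDKN2B's main transcript NM_004936 rose with the gene (log2 fold change 0.48, SE 0.13, edgeR adjusted p = 0.048), and its other transcript NM_078487 was listed at 0, 0.32 and 0.59 TPM with HOTAIR-N siRNA and at 0 in the 3 control libraries. CDKN2A's transcripts share exons, and CDKN2B lies opposite an antisense RNA, so with the strand setting not known these values carry the error of dividing reads. CDKN2C, p18, and CDKN3, a phosphatase of CDK2, did not pass, with log2 fold changes of -0.15 (SE 0.11, edgeR adjusted p = 0.253) and -0.12 (SE 0.06, edgeR adjusted p = 0.131). Under 2 of 16 alternatives CDKN3 passed as lower.

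Of the pocket proteins, RBL2, the p130 of resting cells, fell, and RB1 and RBL1 did not pass. RBL2 had 28.8, 26.9 and 27.4 TPM with HOTAIR-N siRNA, against 32.4, 37.5 and 37.3 TPM with control siRNA. The highest HOTAIR-N siRNA library was below the lowest control, with a log2 fold change of -0.32 (SE 0.06, edgeR adjusted p = 0.000446). RB1, the retinoblastoma protein, overlapped at 40.1, 37.96 and 41.2 TPM with HOTAIR-N siRNA, against 38.5, 47.7 and 45.1 TPM with control siRNA (log2 fold change -0.09, SE 0.07, edgeR adjusted p = 0.24), and passed without control replicate 1 (-0.16, edgeR adjusted p = 0.0116). RBL1, p107, overlapped too, at 37, 38.04 and 35.5 TPM with HOTAIR-N siRNA, against 34.9, 39.95 and 39.1 TPM with control siRNA (log2 fold change 0.02, SE 0.06, edgeR adjusted p = 0.81). Under 1 of 16 alternatives RBL1 passed as higher.

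The activator E2Fs, which turn on S phase genes once the pocket proteins let go, did not move as one. E2F1 had 39.4, 42.9 and 42.4 TPM with HOTAIR-N siRNA, against 33.6, 30.5 and 31.2 TPM with control siRNA. Every HOTAIR-N siRNA library was above every control, with a rise to 135% of control, a log2 fold change of 0.43 (SE 0.07, edgeR adjusted p = 7.45e-05). E2F3 had 45.8, 47.6 and 47.3 TPM with HOTAIR-N siRNA, against 56.9, 62.7 and 59.8 TPM with control siRNA. Here every HOTAIR-N siRNA library was below every control, with a log2 fold change of -0.32 (SE 0.05, edgeR adjusted p = 0.000107). E2F2 had 23.4, 26.02 and 26.2 TPM with HOTAIR-N siRNA, against 23.2, 24.6 and 22.1 TPM with control siRNA, overlapping values with a log2 fold change of 0.16 (SE 0.06, edgeR adjusted p = 0.0403) that was lost under 5 of 16 alternatives, 4 of them with a library left out, with an adjusted p of up to 0.171 without HOTAIR-N siRNA replicate 3 (edgeR).

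Of the repressor E2Fs, the 2 atypical ones, which bind DNA without a DP partner and shut S phase genes down again, both fell. E2F7 had 5.15, 5.46 and 5.74 TPM with HOTAIR-N siRNA, against 10.7, 12.7 and 11.8 TPM with control siRNA. The lowest control was well above the highest HOTAIR-N siRNA library, and E2F7 stood at 48.0% of control, a log2 fold change of -1.06 (SE 0.07, edgeR adjusted p = 1.49e-08). E2F8 had 12.6, 12.3 and 12.3 TPM with HOTAIR-N siRNA, against 17.2, 19.8 and 18.6 TPM with control siRNA. Its 3 HOTAIR-N siRNA libraries were nearly identical and below all controls, with a log2 fold change of -0.54 (SE 0.07, edgeR adjusted p = 6.6e-06). The repressors that work with pocket proteins or Polycomb did not pass. E2F6 had 36.8, 31.5 and 34.3 TPM with HOTAIR-N siRNA, against 36.6, 39.8 and 41.3 TPM with control siRNA (log2 fold change -0.15, SE 0.07, edgeR adjusted p = 0.0807), and passed without HOTAIR-N siRNA replicate 1 (-0.22, edgeR adjusted p = 0.0234) or control replicate 1 (-0.18, edgeR adjusted p = 0.0316). For E2F4 the log2 fold change was 0.06 (SE 0.06, edgeR adjusted p = 0.404) and for E2F5 -0.03 (SE 0.09, edgeR adjusted p = 0.782), with overlapping groups. E2F4 passed without control replicate 1 (0.13, edgeR adjusted p = 0.0311).

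The promoters of E2F1 and E2F7 are shown because both are known E2F targets, both hold E2F words beside CCAAT boxes, and the genes moved in opposite directions. E2F words were TTCCCGC or TTCGCGC and also TTGGCGC or TTGCCGC, on either strand, printed in capitals with the CCAAT words. They lie at chr20:33686336-33686635 (− strand, E2F1) and chr12:77065520-77065819 (− strand, E2F7) in GRCh38.p14, from RefSeq.
E2F1: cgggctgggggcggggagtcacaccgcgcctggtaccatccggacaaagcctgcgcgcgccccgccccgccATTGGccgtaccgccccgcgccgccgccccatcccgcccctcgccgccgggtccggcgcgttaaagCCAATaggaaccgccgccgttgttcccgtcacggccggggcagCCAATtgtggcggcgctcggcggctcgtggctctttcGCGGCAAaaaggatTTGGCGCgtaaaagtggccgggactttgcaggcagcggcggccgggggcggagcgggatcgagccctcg
E2F7: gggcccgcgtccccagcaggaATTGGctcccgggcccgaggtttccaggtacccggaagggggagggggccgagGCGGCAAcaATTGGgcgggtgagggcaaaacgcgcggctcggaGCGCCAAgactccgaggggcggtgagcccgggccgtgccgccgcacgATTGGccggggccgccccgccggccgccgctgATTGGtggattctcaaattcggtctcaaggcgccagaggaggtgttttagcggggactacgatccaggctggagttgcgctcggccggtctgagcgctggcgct
E2F1 holds 2 E2F words, from positions -33 and -19, and 3 CCAAT words, and E2F7 holds 2 E2F words, from positions -176 and -133, and 4 CCAAT words. An E2F word was found in 14 of the 55 promoters of the cell cycle genes (25.5%) and in 13% of all promoters. By gene it was found in 5 of 17 that fell, 3 of 9 that rose and 4 of 12 that did not pass, against 27.5, 22.3 and 24% of all tested genes that fell, rose or did not pass.

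Of the phosphatases and kinases that set CDK1 and CDK2 activity by tyrosine phosphorylation, CDC25B rose and CDC25C fell. CDC25B, the phosphatase that starts CDK1 activation in G2, had 88.4, 95.9 and 93.6 TPM with HOTAIR-N siRNA, against 65.6, 65.7 and 62.3 TPM with control siRNA. The groups stood well apart, with a rise to 149% of control, a log2 fold change of 0.58 (SE 0.06, edgeR adjusted p = 6.39e-07). CDC25C, the mitotic phosphatase, had 12, 11.6 and 11.8 TPM with HOTAIR-N siRNA, against 17.3, 19.8 and 20.3 TPM with control siRNA. They stood apart in the other direction, at 62.3% of control, a log2 fold change of -0.68 (SE 0.08, edgeR adjusted p = 2.74e-06). CDC25A, the phosphatase of CDK2 at the start of S phase, lay at 33.5 to 34.6 TPM with HOTAIR-N siRNA and 34.5 to 37.4 TPM with control siRNA and did not pass (log2 fold change -0.02, SE 0.06, edgeR adjusted p = 0.792). The inhibitory kinase WEE1 had 29.98, 28.1 and 28.3 TPM with HOTAIR-N siRNA, against 29.2, 33.03 and 32.1 TPM with control siRNA, with one control among the HOTAIR-N siRNA values (log2 fold change -0.07, SE 0.06, edgeR adjusted p = 0.34). PKMYT1, a related kinase at the endoplasmic reticulum, had 37.6, 47.9 and 43.9 TPM with HOTAIR-N siRNA, against 44.4, 41 and 36.6 TPM with control siRNA. Its groups overlapped widely, and its direction changed with the processing, with a log2 fold change of 0.13 (SE 0.09, edgeR adjusted p = 0.236), 0.22 without control replicate 1 (edgeR adjusted p = 0.0252) and -0.11 once trends with GC content and length were taken out (edgeR adjusted p = 0.0278).

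The isoform tables list 140 transcripts of the 48 genes, of which 113 could be tested and 29 passed, 19 lower and 10 higher, in 22 genes. Over all 32627 tested isoforms 19.5% passed (edgeR's quasi-likelihood test). When a library was left out 17 to 30 passed, fewest without HOTAIR-N siRNA replicate 3 (17) or 2 (18) and without control replicate 2 or 3 (19 each). No isoform that passed went against its gene. In 21 of the 22 genes the gene itself had passed too, and the exception was WEE1. Its transcript NM_001143976 had 3.66, 3.95 and 3.58 TPM with HOTAIR-N siRNA, against 5.94, 10.5 and 10.8 TPM with control siRNA. It made up 12.2, 14.1 and 12.7% of the gene with HOTAIR-N siRNA, against 20.4, 31.7 and 33.7% with control siRNA. Both the level and the share were apart, with control replicate 1 the lowest control, and the level fell by 1.22 on the log2 scale (SE 0.23, edgeR adjusted p = 0.0193). The main transcript NM_003390 did not pass (log2 fold change 0.22, SE 0.07, edgeR adjusted p = 0.0811). The other isoforms with the smallest p in genes that did not pass were NM_001278278 of E2F6 (log2 fold change -0.79, edgeR adjusted p = 0.0901) and NM_004060 and NM_199246 of CCNG1 (-0.31, edgeR adjusted p = 0.145, and 3.92, SE 1.74, edgeR adjusted p = 0.195), none of which passed.

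Whether an isoform's share within its gene differed was tested for the 30 genes with at least 2 tested isoforms. None passed edgeR's diffSpliceDGE test after adjustment, 3 had an unadjusted p under 0.05, and 4.13% of all 7523 such genes passed. The closest was FOXM1 (adjusted p = 0.0519, edgeR), followed by WEE1 (adjusted p = 0.0871, edgeR) and CCNG1 (adjusted p = 0.401, edgeR). Without HOTAIR-N siRNA replicate 3, FOXM1 passed (adjusted p = 0.00146, edgeR), as did CDKN2B and CDK8 without HOTAIR-N siRNA replicate 1 (0.0341 and 0.0442), E2F5 and CCNG1 without control replicate 1 (0.0011 and 0.00763) and CDK6 without control replicate 3. FOXM1 and CDC25C are described here after their values were seen. FOXM1's transcript NM_202002 made up 20.8, 18.5 and 14.7% of the gene with HOTAIR-N siRNA, against 10.4, 10.9 and 9.58% with control siRNA. Its shares did not overlap, and its level had a log2 fold change of 0.30 that did not pass (edgeR adjusted p = 0.176), while the larger transcripts NM_001243089 (-0.55, edgeR adjusted p = 0.00347) and NM_021953 (-0.67, edgeR adjusted p = 0.00996) fell. In CDC25C, NM_022809 made up 44.5, 41.8 and 42.6% with HOTAIR-N siRNA, against 22.8, 23.3 and 27.5% with control siRNA. NM_001790 made up 5.33, 20.0 and 6.49% with HOTAIR-N siRNA, against 22.7, 33.1 and 31.8% with control siRNA, with 1 HOTAIR-N siRNA library close to the lowest control. Neither CDC25C transcript passed by level, NM_022809 at a log2 fold change of 0.16 (edgeR adjusted p = 0.613) and NM_001790 at -2.12 (edgeR adjusted p = 0.0528).

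**Figure D4:**
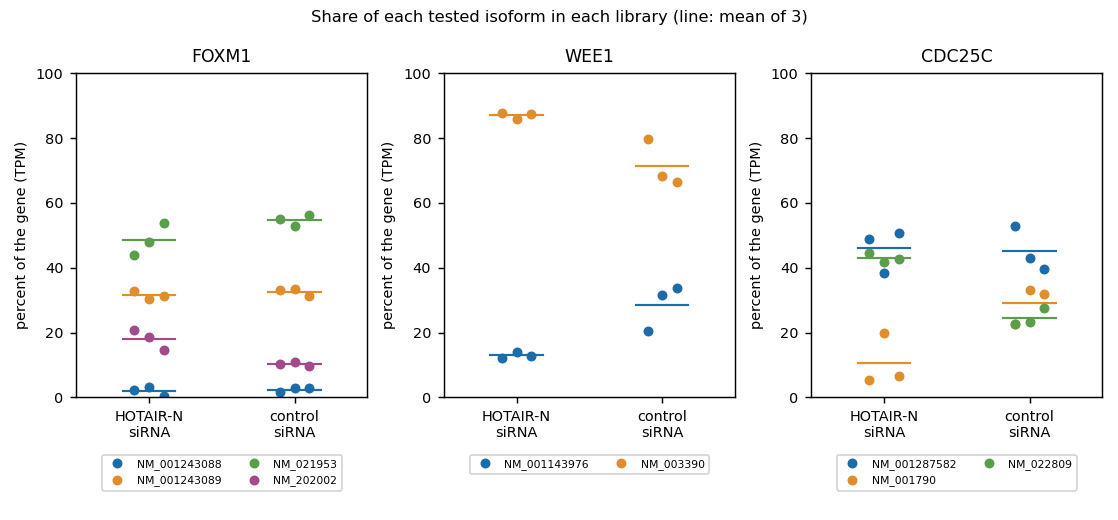
Percent of the gene's TPM made up by each tested isoform of FOXM1, WEE1 and CDC25C in each library, HOTAIR-N siRNA on the left and control siRNA on the right; lines are means of 3. The shares of NM_001143976 and NM_003390 in WEE1, of NM_202002 in FOXM1 and of NM_022809 and NM_001790 in CDC25C do not overlap between the siRNAs. No gene passed the test of isoform use.

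Further genes of the pathway, from 7 lists chosen by function, were read from the same test. The lists were chosen with earlier results of these data known, so their shares are no independent evidence. Of 20 G2/M genes known as targets of MuvB and FOXM1, all 20 fell, with a median log2 fold change of -0.64, against 28.8% lower over all tested genes. CDCA8, borealin of the chromosomal passenger complex, averaged 57.8 ± 1.06 TPM with HOTAIR-N siRNA and 146.9 ± 1.82 TPM with control siRNA (SD, n = 3 each; log2 fold change -1.31, edgeR adjusted p = 1.63e-10). KIF23, a kinesin of cytokinesis, CENPA, the centromeric histone, and CENPF, a kinetochore protein, had log2 fold changes of -1.05 (edgeR adjusted p = 1.72e-09), -0.93 (edgeR adjusted p = 6.03e-08) and -0.92 (edgeR adjusted p = 1.18e-07). Of 9 tested E2F partners and MuvB subunits, 7 (77.8%) fell and none rose, with a median of -0.28. LIN52, the MuvB subunit through which p130 and p107 dock, averaged 10.5 ± 0.13 TPM with HOTAIR-N siRNA and 25.9 ± 1.73 TPM with control siRNA (SD, n = 3 each; log2 fold change -1.25, edgeR adjusted p = 3.55e-09). TFDP2 and TFDP1, the DP partners of E2F, fell by 0.52 (edgeR adjusted p = 8.68e-06) and 0.37 (edgeR adjusted p = 2.39e-05) on the log2 scale, and the DNA-binding MuvB subunit LIN54 fell by 0.38 (edgeR adjusted p = 0.00044).

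**Figure D5:**
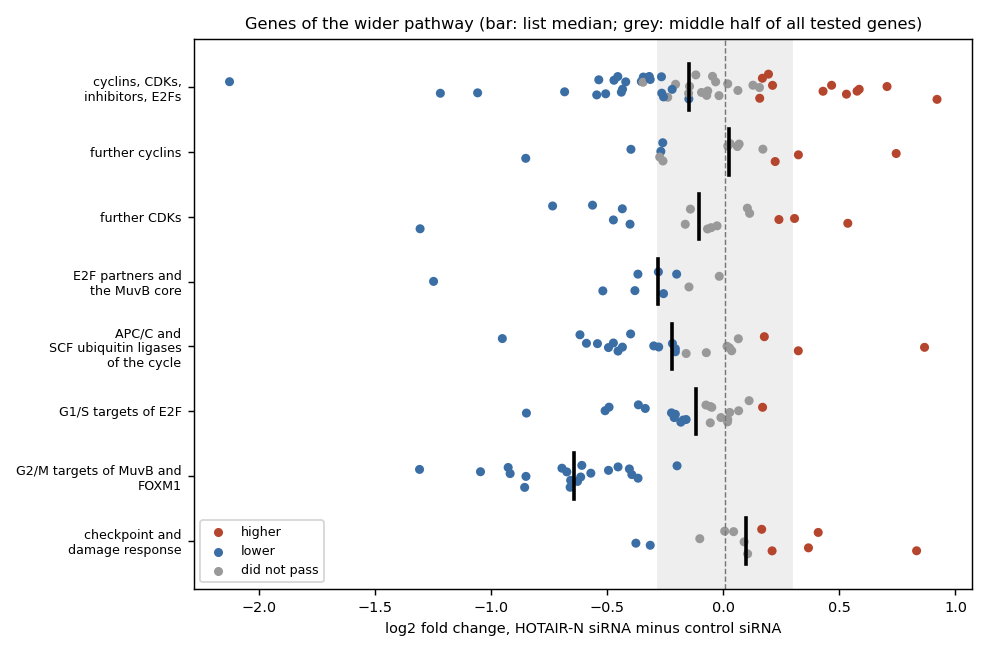
Log2 fold change, HOTAIR-N siRNA minus control siRNA, of every tested gene in the set of 48 and in 7 further lists of pathway genes. Black bars are list medians and the grey band runs from percentile 25 to percentile 75 of all tested genes, -0.28 to 0.30; all 20 G2/M targets lie to the left of 0.

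Of the 22 G1/S targets of E2F, 11 (50%) fell and 1 (4.55%) rose, against 28.8% lower and 28.7% higher over all tested genes. Their median log2 fold change was -0.12, and 54.5% passed in either direction, against 57.5% of all tested genes. SLBP, the histone mRNA binding protein, averaged 47.98 ± 2.05 TPM with HOTAIR-N siRNA and 89.4 ± 7.05 TPM with control siRNA (SD, n = 3 each; log2 fold change -0.85, edgeR adjusted p = 6.22e-08). The replicative helicase subunits MCM6 and MCM3 and the GINS subunit GINS1 fell by 0.51 (edgeR adjusted p = 1.09e-06), 0.34 (edgeR adjusted p = 4.9e-05) and 0.49 (edgeR adjusted p = 9.51e-05) on the log2 scale. PCNA, TYMS and MCM2 did not pass, with log2 fold changes of 0.03, -0.01 and 0.02 (edgeR adjusted p = 0.662, 0.874 and 0.806), and were picked after their values were seen. Of 23 genes of the APC/C and SCF ubiquitin ligases, which destroy cyclins and their inhibitors, 14 (60.9%) fell and 3 (13%) rose. Over all tested genes 28.8% were lower and 28.7% higher, and the median log2 fold change of the 23 was -0.22. CDC20 and UBE2C, which fell, are in both this list and that of the G2/M genes. CDC23, an APC/C subunit, rose to 182% of control (log2 fold change 0.87, edgeR adjusted p = 1.01e-07). FBXO5, the APC/C inhibitor EMI1, CDC20, its mitotic activator, and BTRC, an SCF substrate receptor, fell by 0.62 (edgeR adjusted p = 7.31e-07), 0.49 (edgeR adjusted p = 3.41e-06) and 0.59 (edgeR adjusted p = 4.38e-06). These changes are on the log2 scale, as are those that follow. Of 12 checkpoint and DNA damage response genes, 5 (41.7%) rose and 2 (16.7%) fell, against 28.7% higher and 28.8% lower over all tested genes. Their median was 0.10, and the 58.3% that passed in either direction is close to the 57.5% of all tested genes. BTG2, an antiproliferative gene, RRM2B, a ribonucleotide reductase subunit induced by DNA damage, and SESN1, the stress-induced sestrin 1, rose by 0.83 (edgeR adjusted p = 2.9e-07), 0.41 (edgeR adjusted p = 0.000281) and 0.37 (edgeR adjusted p = 0.000449), PPM1D, a phosphatase of the damage response, fell by 0.38 (edgeR adjusted p = 0.000809), and MDM2, a ubiquitin ligase, did not pass, at 0.04 (edgeR adjusted p = 0.593), and was picked after its value was seen.

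The further cyclins and CDKs passed about as often as genes in general. Of 14 further cyclins 4 (28.6%) fell and 3 (21.4%) rose, with a median log2 fold change of 0.02, against 28.8% lower and 28.7% higher over all tested genes. CCNT1 and CCNT2, the cyclins that pair with CDK9, moved apart, at -0.40 (edgeR adjusted p = 5.19e-05) and 0.32 (edgeR adjusted p = 0.00245). CCNO, known from multiciliated cells, rose by 0.74 (edgeR adjusted p = 0.00174), and CNTD1, a cyclin-like protein of meiosis, fell by 0.85 (edgeR adjusted p = 0.00238) on the log2 scale, both at under 5 TPM in every library. Of 16 tested further CDKs 6 (37.5%) fell and 3 (18.8%) rose, with a median of -0.11. CDK19, the close relative of CDK8 in Mediator, averaged 5.21 ± 0.19 TPM with HOTAIR-N siRNA and 7.04 ± 0.73 TPM with control siRNA (SD, n = 3 each; log2 fold change -0.40, edgeR adjusted p = 0.000377). CDK16 fell by 0.47 (edgeR adjusted p = 1.02e-05) and CDKL1 by 0.56 (edgeR adjusted p = 0.000525), and CDK14 fell by 1.31 (edgeR adjusted p = 0.000293), a change that rests on 14 to 25 expected counts with HOTAIR-N siRNA and 42 to 61 with control siRNA.

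Over the 7 lists, 15 genes hold GACCAAT or ACCAATA in the 3′ UTR, of which 10 fell, 2 rose and 3 did not pass. Another 96 hold neither there, of which 52 fell, 13 rose and 31 did not pass. The part of the words in these changes was not tested. Over all tested genes with a 3′ UTR of at least 50 nt, 52.2% of those with a word and 27.9% of those without one fell. Earlier work on the same libraries singled the words out, so these counts are no independent evidence. The 2 holders in the lists that rose were SESN1 and CCNO, and MDM2 was among the 3 that did not pass. Of the genes named above from these lists, CENPF, LIN52, SLBP, MCM6, BTRC and PPM1D hold a word there and fell.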

How the data were processed

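RNA was taken from 3 transfections of H23 cells with HOTAIR-N siRNA and 3 with control siRNA, extracted with TRIZOL and made into stranded, ribosomal RNA-depleted libraries, per the labels' protocols. Per the submitters' processing notes the tools were STAR 2.6.0c and RSEM 1.3.0 and the build was hg19. No source used here gives the annotation release or the strand setting. The authors deposited expected counts per gene and per RefSeq isoform, estimates of RSEM per the file headers, in which reads shared by transcripts are divided, so that 10.9% of gene values were not whole. The deposited TPM values were scaled by the authors within each library after adjustment for length, and the share of an isoform within its gene is a deposited percent from the same tables.

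After rounding, expected counts entered edgeR 4.0.16 (R 4.3.3; filterByExpr, TMM, robust quasi-likelihood test, Benjamini-Hochberg adjustment, threshold 0.05), over all 15072 genes or 32627 isoforms that passed the filter. A positive log2 fold change means higher with HOTAIR-N siRNA. Isoform use was tested with diffSpliceDGE and Simes p-values over 7523 genes. The tests measure the spread between transfections. On simulated counts of 14939 genes in 3 libraries a group, with 200 genes changed, the test found 53.1% of genes changed 1.25-fold, 84% of those changed 1.5-fold and 91.8% of those changed 2-fold, each with the correct sign. Unchanged genes made up 6.51% of calls. In the data 57.5% of tested genes passed, a far larger share than was changed in the simulation. The adjustment for many tests therefore acts differently there, and these shares do not give the recovery in the data.

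Transcript sequences came from GENCODE release 29 and promoters from RefSeq (GRCh38.p14), another build than that of the counts, so they were matched by name. The 48 genes, their roles, the 7 lists of other pathway genes and the 7-base words were chosen with earlier results of these data known. Each of the 48 genes is given with at least its fold change and test. Values in every library were reserved for up to 4 genes per role with the smallest p. From each pathway list up to 4 genes with the smallest p are named, and others were picked after their values were seen, as said beside them. Values are also given for isoforms of CDKN2A and CDKN2B, and for the 5 isoforms with the smallest p in genes that did not pass. The alternatives were RLE or upper-quartile scaling, plain library totals, a stricter filter (1 CPM in 3 libraries) or none, DESeq2 1.42.0, limma-voom (limma 3.58.1), a test against a fold of 1.5, the replicate number as a blocking term, leaving out each library, and a trend with gene length removed. Taking out trends with GC content and length together was chosen after seeing the data. Some marker, pathway and promoter results are not reported here.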

Additional observations from a re-analysis of the deposited data

How the results depend on the processing

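Against a fold of 1.5 in place of no change, 1700 genes in all passed and 1 cell cycle gene higher and 3 lower, namely CDKN1A, CDK8, CDK2 and E2F7. Leaving out each library in turn gave 7503 to 9234 genes in all, 8 to 13 cell cycle genes higher, 19 to 23 lower, 17 to 30 of their isoforms, 0 to 2 of them for isoform use, and a log2 fold change of HOTAIR of -1.14 to -0.94. The stricter filter gave 1 gene for isoform use, FOXM1 (edgeR adjusted p = 0.0448). Same-numbered libraries did not deviate together, with correlations of -0.12, 0.02 and -0.04, against -0.14 to 0.17 for the other pairs across groups. With 3 libraries a group, these values show no pairing by number and cannot exclude it. With the replicate block 7984 genes in all passed, 8 cell cycle genes higher and 20 lower, with 10 isoforms and none for isoform use. PKMYT1 turned to -0.11 (edgeR adjusted p = 0.0278) once trends with GC content and length were taken out, which was chosen after seeing the data, and the cause was not tested. That alternative gave 12 cell cycle genes higher and 26 lower, the trend with length alone 11 and 25, and the others of scaling, filter and tool 10 to 11 higher and 20 to 23 lower. Over the 48 genes the alternatives, the fold of 1.5 included, kept direction and side of the threshold in 734 cases, lost a call in 58, gained one in 22 and turned 1 round. The calls lost when a library was left out were those of CCND3, CDK1, CDK4, CDK9 and E2F2. CDKN1C had the fewest reads of the 48 genes, 11 to 29 expected counts a library, and the largest SE, 0.33.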
